A study of Mus musculus with 8 samples.

Results

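*Ucp1*, *Ucp2* and *Ucp3* encode the uncoupling proteins, carriers of the SLC25 family in the inner mitochondrial membrane. They were taken by gene symbol and made up 3 of the 33641 genes in the files. These genes held 16 of the 105129 transcripts, with 1 for *Ucp1*, 11 for *Ucp2* and 4 for *Ucp3*. UCP1 lets protons return to the mitochondrial matrix without ATP synthesis, by which brown adipocytes make heat, and its gene is switched on by adrenergic and thyroid signals. UCP2 is made in many tissues, immune cells among them, while UCP3 is made mainly in skeletal muscle and brown fat. Transcripts of *Ucp2* and *Ucp3* are known to respond to fatty acids, in part through the PPAR receptors, and what these proteins carry is less settled than for UCP1.

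In the study, HuR, an RNA-binding protein encoded by *Elavl1*, was deleted in adipocytes by Cre recombinase under the adiponectin promoter acting on floxed *Elavl1* alleles, so that other cells of the tissue keep HuR. Poly(A) RNA was sequenced from interscapular brown adipose tissue (BAT) of C57BL/6 mice aged 28 weeks. The labels give 3 libraries as wild-type, called control here (A12, A8 and A7). The other 5, A31, A29, A26, A25 and A24, are labelled as HuR knockout and are called *Adipo-HuR-/-*. The study's controls were littermates of mixed genotype, *wt/wt* with Cre, or *flox/flox* or *wt/flox* without it, and the labels do not say which each control was. The study's own text gives the group sizes the other way round, and the groups here follow the labels. Estimated counts totalled between 17558090 and 67498055 per library, with the lowest totals in A25 and A24 (18264754), both labelled *Adipo-HuR-/-*.

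Levels of a gene in different libraries are in CPM, counts relative to a library total that TMM normalization adjusts by the bulk of the genes. *Elavl1* stood at 49.2 CPM in A12, 48.0 in A8 and 50.6 in A7, and at 61.2 in A31, 61.3 in A29, 43.4 in A26, 47.3 in A25 and 61.9 in A24. A31, A29 and A24 were above every control library and A26 and A25 below every one, so that the *Elavl1* total did not separate the labelled groups (log2 fold change 0.16, adjusted p = 0.667 by edgeR's quasi-likelihood test). This total covers deleted and kept exons and the RNA of cells without Cre, and the directions below follow the labels. Libraries also differed in skeletal muscle RNA, which was high in A7 and A8, lower in A31 and lowest in the other 5 libraries. Because the tissue was sequenced in bulk, fewer cells of a type and less RNA per cell cannot be told apart.

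The genes differed widely in abundance. Levels are compared between genes only per length, as TPM, in which each transcript's count is divided by its annotated length and the library scaled to a common sum. *Ucp1* reached a median of 6513 TPM over the 8 libraries, *Ucp3* 60.4 TPM and *Ucp2* 28.4 TPM. The *Ucp1* level lay between 4575 TPM in A25 and 8837 TPM in A31, and *Ucp1* ranked between 16 and 26 among all genes in a library. Transcripts of the mitochondrial genome took 10 to 13 of the places above it. Among protein-coding genes of the nucleus *Ucp1* ranked between 3 and 9, and *Fabp4*, the fatty acid carrier of adipocytes, was the only such gene above it in all 8 libraries. *Ucp3* ranked between 602 and 2275 and *Ucp2* between 1948 and 3731. *Ucp1* was 111 to 558 times as abundant as *Ucp2* by TPM, so this order held in every library without overlap. *Ucp3* was 1.01 to 4.64 times as abundant as *Ucp2*, with the lowest ratio in A7 and the highest in A31. The order of *Ucp3* over *Ucp2* held in each library, but in A7 the levels were nearly equal. The TPM of *Ucp2*, and so its ratios, depend on how its reads were divided between transcripts of unlike length.

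The first comparison asks whether *Ucp1* RNA, the transcript that defines brown adipocytes, differed with the genotype on the label. *Ucp1* stood at 9483 CPM in A12, 11438 in A8 and 4843 in A7. In the libraries labelled *Adipo-HuR-/-* it stood at 9475 CPM in A31, 7213 in A29, 7636 in A26, 4251 in A25 and 10703 in A24. Each group held high and low libraries, and 4 of the 5 libraries labelled *Adipo-HuR-/-* fell within the control range. The means were 8588 ± 3388 CPM (SD, n = 3) in control and 7855 ± 2459 CPM (SD, n = 5) in *Adipo-HuR-/-*. The log2 fold change, positive where *Adipo-HuR-/-* is higher, was −0.13 (standard error 0.350, adjusted p = 0.889 in the quasi-likelihood test of edgeR, adjusted over 14851 genes by the method of Benjamini and Hochberg). The 95% interval of the fold ran from 0.534 to 1.57. A two-sided exact permutation test over the 56 assignments of the libraries gave p = 0.786. With only 56 assignments, such a p can take few values. The sign of the small difference turned without A8 (log2 fold change 0.14) and without A25 (0.03). Without TMM factors it was 0.13, but the median of all genes then moved to 0.23, and *Ucp1* lay below that median. The spread within groups was 0.563 on the log2 scale, which placed *Ucp1* at the 93.4th percentile of 7419 genes with a mean of at least 10 CPM, for which the median was 0.262.

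*Ucp2* was the least abundant of the 3 genes by TPM and, in CPM, varied least within groups. It stood at 30.6 CPM in A12, 29.3 in A8 and 42.1 in A7, against 32.4 in A31, 47.5 in A29, 47.8 in A26, 33.6 in A25 and 39.6 in A24. A26 and A29 were above every control library, and A7 was above the remaining 3 libraries labelled *Adipo-HuR-/-*. The means were 34.0 ± 7.03 CPM (SD, n = 3) in control and 40.2 ± 7.35 CPM (SD, n = 5) in *Adipo-HuR-/-*. The log2 fold change was 0.24 with a 95% interval from −0.19 to 0.67 (adjusted p = 0.574 in the quasi-likelihood test), and the exact permutation test gave p = 0.232. The spread of *Ucp2* within groups was 0.272 on the log2 scale, at the 53.0th percentile of the same genes. By TPM, however, *Ucp2* ran from 11.5 in A8 to 41.3 in A25. TPM uses no TMM factors (0.763 in A8 and 1.20 in A25) and divides each transcript's count by its own length. The short transcript *Ucp2-210*, of 1116 bases, took 17.7% of the *Ucp2* counts in A8 and 45.3% in A25. *Ucp2* had 702 to 3229 counts per library, with 1159 in A8 and 709 in A25.

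On the log2 scale, *Ucp3* had the largest difference of the 3 genes between the groups and also the largest spread within them, 0.628, at the 95.3rd percentile of the same genes. It stood at 57.7 CPM in A12, 135 in A8 and 55.0 in A7, and at 182 in A31, 183 in A29, 226 in A26, 95.4 in A25 and 98.3 in A24. All 5 libraries labelled *Adipo-HuR-/-* were above A7 and A12, and 3 of them were also above A8. The means were 82.6 ± 45.5 CPM (SD, n = 3) in control and 157 ± 57.6 CPM (SD, n = 5) in *Adipo-HuR-/-*. The fold was 1.90 with a 95% interval from 1.05 to 3.43, at an unadjusted p of 0.0356 and an adjusted p of 0.255 in edgeR's quasi-likelihood test. The difference therefore did not pass the threshold (adjusted p of at most 0.05 and a fold of at least 1.5), and the exact permutation test gave p = 0.107. Of the 3 genes, 0 were past the threshold, against 0.707% of all genes tested, and 1 had an unadjusted p under 0.05, against 17% of all genes. DESeq2's Wald test, which called 5.51% of all genes, and limma voom, which called 1.06%, also placed 0 of the 3 past the threshold. Without A8 the log2 fold change of *Ucp3* was 1.48 in place of 0.93 (adjusted p = 0.0819), without A7 it was 0.70 (adjusted p = 0.471) and without A12 0.73 (adjusted p = 0.555), and over all alternatives the adjusted p lay between 0.0819 and 0.555.

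**Figure D1:**
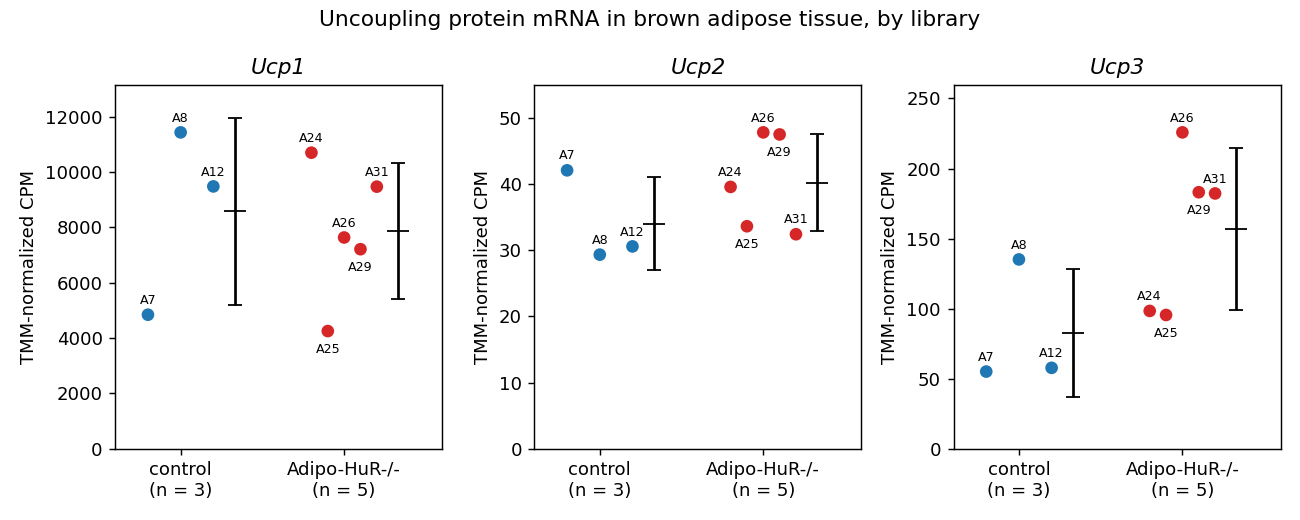
Points show TMM-normalized CPM of *Ucp1*, *Ucp2* and *Ucp3* (vertical axes from 0) in each library, blue for control (n = 3) and red for *Adipo-HuR-/-* (n = 5), and bars show mean ± SD. The groups overlap for all 3 genes, and A8 at 135 CPM is the control library that lies among the red points of *Ucp3*.

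Depth moved with the *Ucp3* level inside the group labelled *Adipo-HuR-/-*. A24 and A25, with the fewest counts, had a mean of 96.9 CPM of *Ucp3*, and the other 3 libraries had 197 ± 24.9 CPM (SD, n = 3). The control libraries, which held between 50673814 and 60622522 counts, include none as shallow as A24 and A25. Without A24 and A25, which had the least *Ucp3* of their group, the log2 fold change was 1.25 (adjusted p = 0.206 in the quasi-likelihood test). With all 8 libraries, 11.5% of genes had groups that did not overlap, and 0 of the 3 *Ucp* genes were among them.

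Since *Ucp3* is also made in skeletal muscle, its level was set beside that of muscle RNA in each library. *Acta1*, the actin of skeletal muscle fibres, stood at 0.104 CPM in A12, 320 in A8 and 619 in A7, and at 54.0 in A31, 0.246 in A29, 0.252 in A26, 0.0949 in A25 and 0.395 in A24. *Ckm*, the creatine kinase of muscle, stood at 0.230 CPM in A12, 237 in A8 and 273 in A7, and at 33.2 in A31, 0.152 in A29, 0.163 in A26, 0.0949 in A25 and 0.0564 in A24. Both genes were thus high in A7 and A8, intermediate in A31 and under 1 CPM in the other 5 libraries. Summed over 30 skeletal muscle genes, CPM came to 5508 in A7, 3490 in A8, 71.4 in A12, 625 in A31, 67.8 in A29, 60.1 in A26, 50.7 in A25 and 70.2 in A24. The most abundant gene of this list was *Myh4* in A7, A8 and A31, *Mb* in A26 and *Myl1* in A12, A24, A25 and A29. In A12, A24, A25, A26 and A29, between 3 and 10 of the 30 genes had 0 counts, *Pvalb* in each of these libraries, whereas in A7, A8 and A31 0 of the 30 did. Of the 30 muscle genes, 2 (*Myl1* and *Myh7*) fell past the threshold, against 0.707% of all genes tested. An unadjusted p under 0.05 was found for 27 of the 30, against 17% of all genes. Their median log2 fold change was −4.48, against 0.00 over all genes. DESeq2 placed 8 of the 30 past the threshold as lower, against 2.95% of all genes. With limma voom 0 passed in either direction, against 1.06% of all genes.

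*Ucp3* did not follow muscle RNA from library to library. A7, with 5508 CPM of muscle genes, and A12, with 71.4 CPM of which *Myl1* gave 52.4, had nearly the same *Ucp3* level (55.0 and 57.7 CPM). The highest *Ucp3* level was in A26, where *Acta1* and *Ckm* were under 1 CPM, and A31, with 625 CPM of muscle genes, had about as much *Ucp3* as A29 with 67.8. A8 was the only control library with both high muscle RNA and a *Ucp3* level above 100 CPM (135 CPM). As the libraries fell into separate groups of high and low muscle RNA, no correlation over all 8 is given. Among the 5 libraries with low muscle RNA, the only control (A12) had less *Ucp3* than each of the 4 labelled *Adipo-HuR-/-*, at a log2 fold change of 1.39 (adjusted p = 0.339 in the quasi-likelihood test, with A12 assumed to vary like the other group). With the mean log2 CPM of the muscle genes as a covariate, the log2 fold change of *Ucp3* was 1.26 (adjusted p = 0.358), and those of *Ucp1* and *Ucp2* were −0.13 and 0.24.

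**Figure D2:**
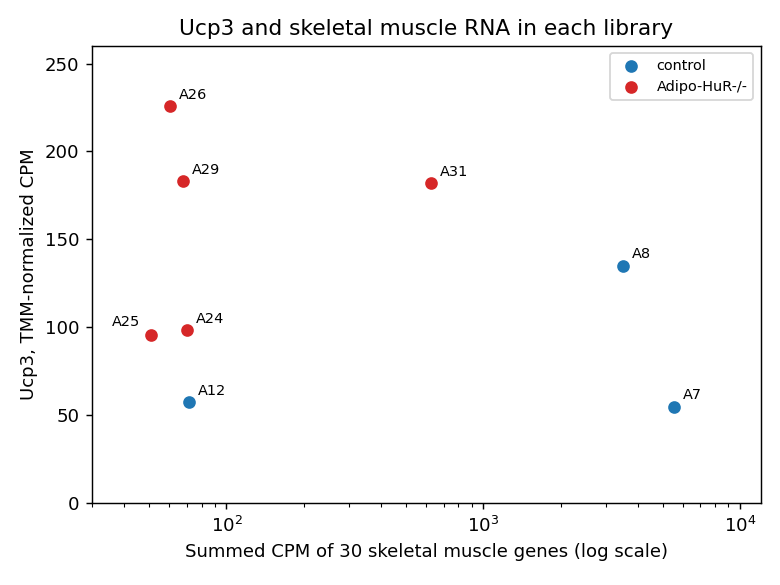
Each point is a library, with the summed CPM of 30 skeletal muscle genes on a log horizontal axis and the CPM of *Ucp3* on the vertical axis, blue for control and red for *Adipo-HuR-/-*. A7 and A12 have nearly the same *Ucp3* level (55.0 and 57.7 CPM) at 5508 and 71.4 CPM of muscle genes.

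The balance between the genes within a library was compared as a ratio of TPM, which does not depend on the scaling of libraries. *Ucp1* exceeded *Ucp3* by 128 times in A7, 126 in A8 and 243 in A12, and by 76.7 in A31, 58.3 in A29, 49.6 in A26, 65.7 in A25 and 162 in A24. The ratio was lower in 4 of the 5 libraries labelled *Adipo-HuR-/-* than in any control, and A24 lay within the control range. The means were 166 ± 67.2 (SD, n = 3) and 82.4 ± 45.5 (SD, n = 5), with p = 0.0893 in the two-sided exact permutation test. The corresponding tests of *Ucp1* over *Ucp2* (exact permutation p = 0.446) and of *Ucp3* over *Ucp2* (exact permutation p = 0.286) covered ratios that overlapped widely. Both ratios to *Ucp2* also depend on the division of its reads between transcripts.

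The genes whose log2 CPM ran most like that of each *Ucp* gene were sought among the 7419 genes with a mean of at least 10 CPM, by Pearson's r over the 8 libraries, as a description. For *Ucp1* these were *Glrx* (r = 0.98), *Atp6v1e1* (0.97), *Atp6v1h* (0.97), *Ctsl* (0.96) and *Eif3m* (0.96), which include subunits of the proton pump of lysosomes. For *Ucp2* they were *Hspa12b* (r = 0.93), *Rspo4* (0.90), *Arhgap26* (0.90), *Ampd3* (0.89) and *Cbfa2t3* (0.88). For *Ucp3* they were *Fam65b* (r = 0.98), *Ap1m1* (0.96), *Trib1* (0.96), *Smarcd1* (0.96) and *Tnk2* (0.96). With each group's mean removed, *Atp6v1e1* and *Glrx* stayed among the 5 nearest to *Ucp1*, *Hspa12b* and *Rspo4* among those of *Ucp2*, and *Fam65b* and *Ap1m1* among those of *Ucp3*. The 8 libraries share the differences in depth and muscle RNA given above, and the best of 7419 such values is high by selection.

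Transcripts were then read singly, with the caution that reads fitting several transcripts of a gene had been divided between them. Shares are percent of the counts of the gene and are not corrected for transcript length. *Ucp1* has a single transcript of 1636 bases in 6 exons, so its gene and transcript counts are the same. Of the 11 *Ucp2* transcripts 5 passed the filter on low counts, 1 (*Ucp2-205*) had 0 counts in all 8 libraries and 6 held under 1% of the gene. Of the 4 *Ucp3* transcripts 3 passed the filter and 2 held under 1%. Of the 9 transcripts tested, the quasi-likelihood test of edgeR placed 0 past the threshold, against 0.00957% of 41808 transcripts (*Gpt2-201*, *Svip-201*, *Psap-205* and *Eif4enif1-203*), and DESeq2's Wald test placed 0, against 2.05% of all transcripts. 1 of the 9, *Ucp2-207*, had an unadjusted p under 0.05, as did 8.17% of all transcripts tested.

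*Ucp3-201*, the coding transcript of 2448 bases in 7 exons, held 82.0% of *Ucp3* in A7, 96.7% in A8 and 92.1% in A12, and 91.9% in A31, 93.2% in A29, 89.3% in A26, 89.9% in A25 and 95.6% in A24. A7 had the lowest share and A8 the highest, both control (two-sided exact permutation p = 0.696). Its level was 76.3 ± 47.2 CPM (SD, n = 3) in control and 144 ± 51.1 CPM (SD, n = 5) in *Adipo-HuR-/-*, a log2 fold change of 0.85 (adjusted p = 0.711). *Ucp3-203*, a transcript with a retained intron, stood at 4.57 CPM in A12, 4.13 in A8 and 9.18 in A7, and at 14.1 in A31, 12.3 in A29, 22.8 in A26, 9.65 in A25 and 4.32 in A24. Its level was thus highest in the 3 deeper libraries labelled *Adipo-HuR-/-*, as for the gene, at a log2 fold change of 1.04 (adjusted p = 0.682). In A7 it held 16.7% of *Ucp3* (95% Wilson interval 15.5 to 18.0), against 3.06% in A8 (2.63 to 3.55) and 10.1% or less in the other libraries (exact permutation p = 0.732 between groups). *Ucp3-202*, the shorter coding form, has each of its bases in *Ucp3-201* as well and held a mean of 0.124%.

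*Ucp2-202*, the full-length coding transcript of 3988 bases, held 64.9% of the *Ucp2* counts in A7, 78.3% in A8 and 58.7% in A12. Its share of counts was 66.4% in A31, 72.2% in A29, 59.3% in A26, 44.3% in A25 and 59.3% in A24. *Ucp2-210*, of 1116 bases, held a mean of 30.2% and was highest in A25 at 45.3% (95% Wilson interval 41.6 to 49.0). All bases of *Ucp2-210* lie in *Ucp2-202* too, while *Ucp2-202* has 2872 bases beyond it, so that no base marks *Ucp2-210* alone. Per base of length, *Ucp2-210* had more counts than *Ucp2-202* at the mean shares (30.2% and 62.9%), but not in A8. The shares of counts therefore do not give the order of the transcripts by abundance. Neither share differed between groups beyond its spread (exact permutation p = 0.411 for each, 4 shares tested). The level of *Ucp2-202* was 22.8 ± 4.70 CPM (SD, n = 3) in control and 24.5 ± 7.29 CPM (SD, n = 5) in *Adipo-HuR-/-*. *Ucp2-207*, a noncoding transcript, stood at 0.161 CPM in A7 and 0 in A8 and A12, and at 0.460 in A31, 0.170 in A29, 0.375 in A26, 0.652 in A25 and 2.0 in A24. All libraries labelled *Adipo-HuR-/-* were above the controls, A29 by little, and the groups did not overlap for 7.42% of all transcripts (unadjusted p = 0.0368, adjusted p = 0.571 in the quasi-likelihood test). Its highest count in a library was 35.5, and only 2 of its 519 bases lie in no other *Ucp2* transcript.

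*Ucp3* and *Ucp2* are neighbours on the plus strand of chromosome 7 of GRCm38, where *Ucp3* runs from 100472990 to 100486432 and *Ucp2* from 100493337 to 100502020. The gap between them is 6904 bases. *Ucp1* lies on the plus strand of chromosome 8, from 83290352 to 83298452. The transcripts with the most counts of each gene encode 307 (*Ucp1*), 309 (*Ucp2*) and 308 (*Ucp3*) amino acids. They share 0 runs of 31 bases with one another, so reads of that length or more without mismatches fit only 1 of the 3. The neighbours *Ucp2* and *Ucp3* were both high in A26 and A29, but in A31 *Ucp2* was low (32.4 CPM) where *Ucp3* was high (182 CPM), and in A7 *Ucp3* was lowest (55.0 CPM) where *Ucp2* was above the other controls (42.1 CPM).

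*Dnajb13*, a heat shock protein gene on the minus strand, overlaps the end of *Ucp2* by 305 exonic bases (100501716 to 100502020). *Dnajb13* stood at 1.30 CPM in A12, 1.04 in A8 and 1.70 in A7, and at 3.98 in A31, 2.94 in A29, 2.90 in A26, 2.89 in A25 and 4.29 in A24. All 5 libraries labelled *Adipo-HuR-/-* were above the controls, but the log2 fold change of 1.33 did not pass the threshold (adjusted p = 0.0600 in the quasi-likelihood test). Whether the counting used strand is not given in the sources used here, so reads of *Ucp2* and *Dnajb13* in these 305 bases cannot be told apart. Their sequence makes up 4.36% of the exonic bases of *Ucp2*. The antisense gene *Gm10603* spans the start of *Ucp3*, shares 0 exonic bases with it and was not analysed here. Of the other genes within 50 kb, *C2cd3* (log2 fold change −0.36), *Coa4* (0.05) and *Mrpl48* (−0.15) near *Ucp3* and *Ucp2*, and *Tbc1d9* (−0.01) and *Elmod2* (−0.40) near *Ucp1*, did not pass the threshold, and the pseudogenes *Gm8463* and *Gm17999* were too low to test.

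**Figure D3:**
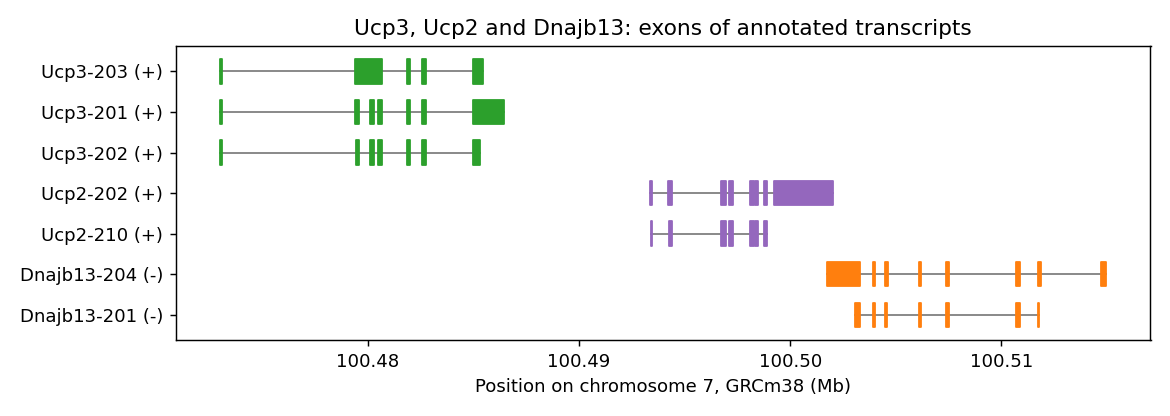
The exons (boxes) of *Ucp3*, *Ucp2* and *Dnajb13* transcripts annotated in GENCODE M21 are drawn to scale on chromosome 7 of GRCm38, with the strand in brackets and the position in megabases on the horizontal axis. The last exon of *Ucp2-202* and the minus-strand *Dnajb13-204* overlap by 305 bases, and *Ucp3* ends 6904 bases before *Ucp2* starts.

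As HuR is known to bind AU-rich stretches in 3′ untranslated regions (UTRs), these were searched for ATTTA, for the longer form TATTTAT, and for TTTNTTT, on the transcript strand. The 3′ UTR of *Ucp1-201* has 481 bases, 66.9% of them A or T, against a median of 53.4% in the first 481 bases of the 10028 3′ UTRs at least as long. It holds ATTTA 3 times, TATTTAT 1 time and TTTNTTT 3 times. At this length 45.6% of 3′ UTRs hold ATTTA and 6.76% hold it 3 times or more, 10.7% hold TATTTAT and 46.8% hold TTTNTTT. The 3′ UTR of *Ucp2-202* has 2670 bases and holds ATTTA 1 time, where 93.9% of 3′ UTRs at least as long hold it in their first 2670 bases, and it holds TTTNTTT 0 times, where 94.1% hold it. The 3′ UTR of *Ucp3-201* has 1324 bases and holds ATTTA 1 time (78.3% hold it) and TTTNTTT 0 times (79.6% hold it). TATTTAT was in neither, while 44.4% and 25.9% of 3′ UTRs at their lengths hold it. A or T made up 46.3% of the 3′ UTR of *Ucp2-202* and 51.7% of that of *Ucp3-201*. The medians at these lengths were 56.7% and 55.4%. The windows of 30 bases around each ATTTA, in capitals, are given from GENCODE M21 on the plus strand of GRCm38, to show the letters matched. They lie at chr8:83298061-83298090, chr8:83298228-83298257 and chr8:83298388-83298417 for *Ucp1*, chr7:100499437-100499466 for *Ucp2* and chr7:100485318-100485347 for *Ucp3*, each in the last exon.
Ucp1-201, site 1: tccgttgactttATTTAcattacaagatca
Ucp1-201, site 2: ataaagtcctgtATTTAactggtctttggg
Ucp1-201, site 3: ccatttcatcttATTTAttgaccacagttc
Ucp2-202: tcctgcaccccgATTTActtcccacctcac
Ucp3-201: tggatgcctaacATTTAggcaagagacaac
A match describes these letters and is not evidence of binding.

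The settings in which the *Ucp* genes work were read from gene lists, each beside the counts over all 14851 genes tested, of which 36 were past the threshold as higher and 69 as lower, with 1134 higher and 1397 lower at an unadjusted p under 0.05. Of 18 brown adipocyte markers, tested as a check of the tissue, 0 passed the threshold by edgeR, DESeq2 or limma voom, 3 were higher at an unadjusted p under 0.05 (*Prdm16*, *Lhx8* and *Kcnk3*) and the median log2 fold change was 0.03. *Cidea*, a lipid droplet protein of brown fat, stood at 2030 ± 787 CPM (SD, n = 3) in control and 1720 ± 307 CPM (SD, n = 5) in *Adipo-HuR-/-*. All 18 markers had counts in all 8 libraries. Of 31 genes listed for the regulation of *Ucp1*, from adrenergic and thyroid signals to transcription factors and coregulators, 0 passed the threshold by any of these tools. The list was not divided by whether a gene raises or lowers *Ucp1*. *Mapk14* (60.5 and 88.2 CPM in control and *Adipo-HuR-/-*), *Thra* (52.6 and 71.4) and *Prdm16* (18.0 and 27.1) were higher and *Atf2* (68.5 and 50.1) lower at an unadjusted p under 0.05. The median of this list was 0.06, and its most abundant gene, *Gnas*, which encodes the stimulatory G protein, stood at 2781 ± 1126 and 3712 ± 432 CPM.

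Of 24 genes that supply fatty acids, the fuel and activator of UCP1, 0 passed the threshold by any of the 3 tools and 1, *Hadha* of β-oxidation, was lower at an unadjusted p under 0.05 (2798 and 2135 CPM, median of the list −0.11). Of 20 PPAR and fatty acid responsive genes, the class to which *Ucp2* and *Ucp3* belong, 0 passed the threshold by edgeR or limma voom and 1 by DESeq2 as higher, and 1 was higher at an unadjusted p under 0.05. The most abundant genes of the list, *Pdk4* (log2 fold change −0.15), *Acsl1* (−0.37) and *Plin2* (−0.14), did not pass, and the median of the list was −0.14.

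Among 17 related mitochondrial carriers tested of 18, 0 passed the threshold by any of the 3 tools, and 3 (*Slc25a42*, *Slc25a35* and *Slc25a47*) were higher at an unadjusted p under 0.05 (median 0.20). Of 16 genes tested for other cycles that can make heat, 0 passed by edgeR or limma voom and 1, *Ckb*, a creatine kinase of brown fat, by DESeq2 as higher (16.4 ± 5.17 and 46.3 ± 22.8 CPM). At an unadjusted p under 0.05, 2 of these 16 were higher and 5 lower, and the 5 lower ones were *Ckmt2*, *Ryr2*, *Ryr1*, *Aldh1a1* and *Atp2a1*. *Ckmt2*, *Ryr1* and *Atp2a1* are also in the list of muscle genes, and *Ryr2* and *Aldh1a1* are not. Of 15 genes tested for oxidant handling and the regulation of *Ucp2*, 0 passed by edgeR or limma voom and 1 as lower by DESeq2, and 2 were lower at an unadjusted p under 0.05, among them *Cat*, the catalase gene (830 and 584 CPM).

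Because immune cells are a known site of *Ucp2*, macrophage markers were set beside it. The 15 markers summed to 202 CPM in A12, 57.2 in A8 and 161 in A7, and to 110 in A31, 102 in A29, 112 in A26, 134 in A25 and 186 in A24, with *Lyz2* the most abundant in every library. A8 was lowest both in these markers and in *Ucp2* (29.3 CPM), and A7 had 161 CPM of markers with 42.1 CPM of *Ucp2*. A26 and A29, with the most *Ucp2*, had fewer macrophage transcripts than A7, A12 and A24. Of these 15 genes 0 passed the threshold by edgeR, DESeq2 or limma voom and 0 had an unadjusted p under 0.05 (median −0.35). Of the 12 lymphocyte, 10 endothelial, 5 erythroid and 6 white adipocyte markers tested, edgeR's test and limma voom placed 0 past the threshold, with medians of 0.27, 0.14, −0.36 and 0.25. At an unadjusted p under 0.05, 2 lymphocyte, 1 endothelial and 2 white adipocyte markers were higher and 1 erythroid and 1 white adipocyte marker lower, and DESeq2 placed 1 of these genes past the threshold, *Agt* of the white adipocyte list, as higher. The part of these cell types in the *Ucp* levels was not tested.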

How the data were processed

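The authors deposited estimated counts for each transcript and library, not normalized, and reads of poly(A) libraries had been mapped in CLC Genomics Workbench. The program that wrote the estimated counts is not given in the sources used here. Transcript values were added up for each symbol and rounded, and 79.1% of these sums lay no more than 0.02 from a whole number before rounding. Groups followed the labels. Genes kept by edgeR's filterByExpr were scaled by TMM and entered the quasi-likelihood test, as were transcripts, with Benjamini-Hochberg adjustment over all genes or transcripts tested. The scripts were tried on simulated counts. Log2 CPM used a prior count of 2. TPM used transcript lengths of GENCODE M21 (GRCm38), which held 103723 of 105129 transcript identifiers without their version and 99.6% of the counts in the library where this share was lowest. For single values, exact permutation tests (two-sided) over the libraries were used. Wilson intervals of transcript shares cover counting error only, since amplified reads are not independent molecules. R 4.3.3, edgeR 4.0.16, limma 3.58.1, DESeq2 1.42.0, Python 3.11.15, numpy 2.4.6, pandas 2.3.3, scipy 1.17.1 and matplotlib 3.10.9 were used.

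The genes named are the *Ucp* genes and their transcripts, genes within 50 kb, the 5 genes most alike, and from each list those past the threshold, or else the 3 with the smallest p, and the 3 most abundant; *Elavl1*, *Fabp4* among the genes above *Ucp1*, and the transcripts past the threshold answer a check or a count. Outside this rule, *Ryr1*, *Aldh1a1*, *Ckm*, *Mb*, *Pvalb* and genes or transcripts behind a small count, also with libraries left out, were named after their values were seen. Some genes that this rule takes from the lists enter the counts but are not reported here by name. Members and lists were chosen with earlier results of these data known. Alternatives were total counts only or DESeq2's size factors in place of TMM, limma voom (sample quality weights) or DESeq2's Wald test, omission of the filter, the transcript with the highest total in place of the gene sum, the muscle score as a covariate, the removal of A7, A8 and A31 or of A24 and A25, and each library left out in turn.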

Additional observations from a re-analysis of the deposited data

Results flagged for a closer look

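Of 27 sets of 5 values from the libraries labelled *Adipo-HuR-/-*, 5 held a library that stood apart, its gap to the nearest other library being over 0.71 of the range of the group. Chance alone gives this in about 1 in 20 groups of independent, normally distributed values. CPM and ratios need not be so distributed, and some sets share values, so this rate does not apply to the 5 of 27. A31 stood apart in 3 sets of muscle RNA, with 54.0 CPM of *Acta1*, 33.2 CPM of *Ckm* and 625 CPM of the summed muscle genes. These 3 sets are not separate, as the sum contains both genes. The *Ucp3* level of A31 (182 CPM) lay beside that of A29 (183 CPM). A24 stood apart with a *Ucp1* over *Ucp3* ratio of 162 by TPM. A24 was also highest for *Ucp2-207*, at 2.0 CPM.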

How the results depend on the processing

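*Ucp3* and *Ucp2* had higher means in *Adipo-HuR-/-* than in control under all 17 alternatives, with log2 fold changes of 0.70 to 1.48 and 0.11 to 0.46, and neither passed the threshold in any (adjusted p 0.0819 to 0.555 and 0.301 to 0.905). *Ucp1* kept its sign in 14 of 17, reversed to 0.13 with total counts only, and ranged from −0.41 to 0.14 when single libraries were left out, without passing in any (adjusted p 0.604 to 0.984). Total counts only moved the median of all genes to 0.23, so that *Ucp1* then lay below it, and 96 genes were past the threshold as higher and 25 as lower, against 36 and 69.

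The count of genes past the threshold, 105 with all libraries, was 818 with DESeq2's Wald test, 16 with the transcript of the highest total, 15 with the muscle covariate, 4 without A7, A8 and A31 (*Arhgef19*, *Gpt2*, *Isyna1* and *Pttg1*), 5 without A24 and A25 (*Cacnb4*, *Gpt2*, *Miip*, *Svip* and *Tmem265*) and 10 to 190 with each library left out. The count of transcripts, 4 with all libraries, was 1 with total counts only, 855 with DESeq2 and 0 to 2 with each library left out. Fits that leave libraries out hold fewer of them, and without A12 the count of genes was 190. The cause of these changes was not tested. No paired analysis was possible because the groups share no replicate number.

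With 3 control libraries, each of which moved the *Ucp3* estimate, the interval of its fold (1.05 to 3.43) is wide. The division of reads between transcripts adds error that no interval here covers.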
